A study of Mus musculus with 22 samples.

Results

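Binding of hnRNP A1, a nuclear RNA-binding protein that takes part in splicing, RNA export and translation, was followed in 9 genes of myelin and oligodendrocytes. These were Mbp, Mog, Mag, Mobp, Cnp, Mal, Cldn11, Opalin and Ermn. They were chosen by name, as genes for structural proteins of myelin or markers of mature oligodendrocytes, and their footprints were taken by position. A footprint is a genomic interval where crosslinked RNA was recovered with the hnRNP A1 antibody. Sites also held by the mouse's own input RNA or by the IgG control libraries had been removed by the authors. A footprint was assigned to a gene when at least 1 nt lay inside the gene's span. Spans came from the GENCODE M21 annotation of the mouse genome build GRCm38. The 9 genes are among 13948 genes that had a footprint in any mouse, and they held 286 of the 136207 footprints.

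The RNA came from whole spinal cords of 10 female wild-type C57Bl/6 mice, each mouse giving 1 CLIPseq library (crosslinking and immunoprecipitation followed by sequencing). 3 mice were naïve. The other 7 had experimental autoimmune encephalomyelitis (EAE), an autoimmune disease of the spinal cord, induced with a peptide of myelin oligodendrocyte glycoprotein in complete Freund's adjuvant together with pertussis toxin. Of these, 3 were mild EAE mice with clinical scores of 1.5, 1.5 and 1, and 4 were severe EAE mice with scores of 2.5, 3, 3 and 2.5. Tissue of EAE mice was taken 15 days after clinical onset, and age at immunization is given as 12 weeks in one description and 8 weeks in another. Score groups, and not time points, separate the mild from the severe mice, so the model gives 1 stage of disease. All cell types of the cord were pooled, so fewer oligodendrocytes and less RNA per oligodendrocyte cannot be told apart, and neither can be told apart from less binding.

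Oligodendrocytes wrap axons of the central nervous system in compact myelin. Mbp and Mobp encode basic proteins of compact myelin, Mog and Mag encode surface proteins of the immunoglobulin superfamily, Cnp encodes 2′,3′-cyclic nucleotide 3′-phosphodiesterase of the cytoplasmic myelin channels, and Mal encodes a proteolipid of membrane rafts. Cldn11 encodes the claudin of the tight junctions between myelin layers, and Opalin and Ermn (ermin) are expressed late in oligodendrocyte differentiation. Several of their transcripts, among them those of Mbp and Mag, are alternatively spliced, and loss of myelin is a hallmark of EAE.

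Coding stretches of 4 of the genes are printed here because they show where footprints of different mice of 1 group fell on the same bases, which is the only form of replication these files allow at a position. Each reads 5′ to 3′ on the strand of the gene, from RefSeq GRCm38.p6. Capitals mark TAG and AGGT, the DNA letters of UAG and AGGU. UAG is a documented short motif of hnRNP A1, and AGGU is one that the study found more strongly represented in its EAE samples. The stretches of Mag exons 8 and 10 lie on the minus strand at chr7:30907104-30907166 (the 63 nt covered in all 3 mild EAE mice) and chr7:30901063-30901131 (naïve mice 1 and 2). Those of Cldn11 exons 2 and 3 lie on the plus strand at chr3:31153914-31154017 (severe EAE mice 3 and 4) and chr3:31163099-31163244 (severe EAE mice 1 and 4). The stretch of Cnp exon 4 lies on the plus strand at chr11:100580587-100580720 (mild EAE mice 1 and 2), and that of Mobp exon 4 on the plus strand at chr9:120168366-120168467 (mild EAE mice 2 and 3).
Mag exon 8: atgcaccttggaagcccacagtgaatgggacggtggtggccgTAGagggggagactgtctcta
Mag exon 10: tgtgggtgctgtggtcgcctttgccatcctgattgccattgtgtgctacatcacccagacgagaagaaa
Cldn11 exon 2: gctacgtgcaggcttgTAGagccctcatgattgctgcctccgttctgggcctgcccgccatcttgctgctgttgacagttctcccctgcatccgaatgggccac
Cldn11 exon 3: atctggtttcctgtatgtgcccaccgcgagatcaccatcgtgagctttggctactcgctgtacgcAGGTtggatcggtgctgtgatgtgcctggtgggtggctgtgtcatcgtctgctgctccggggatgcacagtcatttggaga
Cnp exon 4: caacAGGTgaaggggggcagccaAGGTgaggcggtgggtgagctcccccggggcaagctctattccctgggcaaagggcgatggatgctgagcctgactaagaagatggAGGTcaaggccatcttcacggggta
Mobp exon 4: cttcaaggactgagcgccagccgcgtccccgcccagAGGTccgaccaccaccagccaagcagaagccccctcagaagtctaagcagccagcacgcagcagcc
The 3 AGGT of the Cnp stretch were the most in these 6, and the Mag exon 10 stretch held neither motif. That stretch is the only naïve one printed. Naïve stretches not printed also held motifs, such as one in Mag exon 7 with 1 TAG and 1 AGGT. The 6 therefore do not compare the groups.

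The number of footprints differed widely between mice of 1 group. Naïve mice had 17119 to 17494 footprints, mild EAE mice 9751 to 24433, and severe EAE mice 2670, 209, 673 and 31870. The study's sequencing table gives severe EAE mice 2 and 3 more mapped immunoprecipitation reads than naïve mouse 2, which had more footprints. Severe EAE mouse 4 and mild EAE mouse 3 had the most such reads and also the most footprints. Sites of the mouse's own input were removed, and input depth differed too. Severe EAE mouse 2 had the most mapped input reads and naïve mouse 2 the next most. Severe EAE mouse 4 had fewer input reads than the other severe EAE mice. Severe EAE mouse 2 also had the longest average immunoprecipitation fragments. The part of immunoprecipitation depth, input depth or fragment length in the number of footprints was not tested. The files hold intervals without a read count, so the depth behind a footprint is unknown, and a gene without a footprint may have been bound below what the library could show. Severe EAE mice 2 and 3 held 1 and 2 footprints in the 9 genes, and severe EAE mouse 4, which the study describes as having remitted shortly before the end, held 75. The covered nt of the severe group therefore rest mainly on mice 1 and 4, whereas its share per covered nt is led by mouse 2. Tests were two-sided exact permutations of mouse labels on the covered nt of each gene, with Benjamini-Hochberg adjustment over all genes footprinted in at least 2 of the mice compared, and their p-values measure only the spread between these mice.

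**Figure D1:**
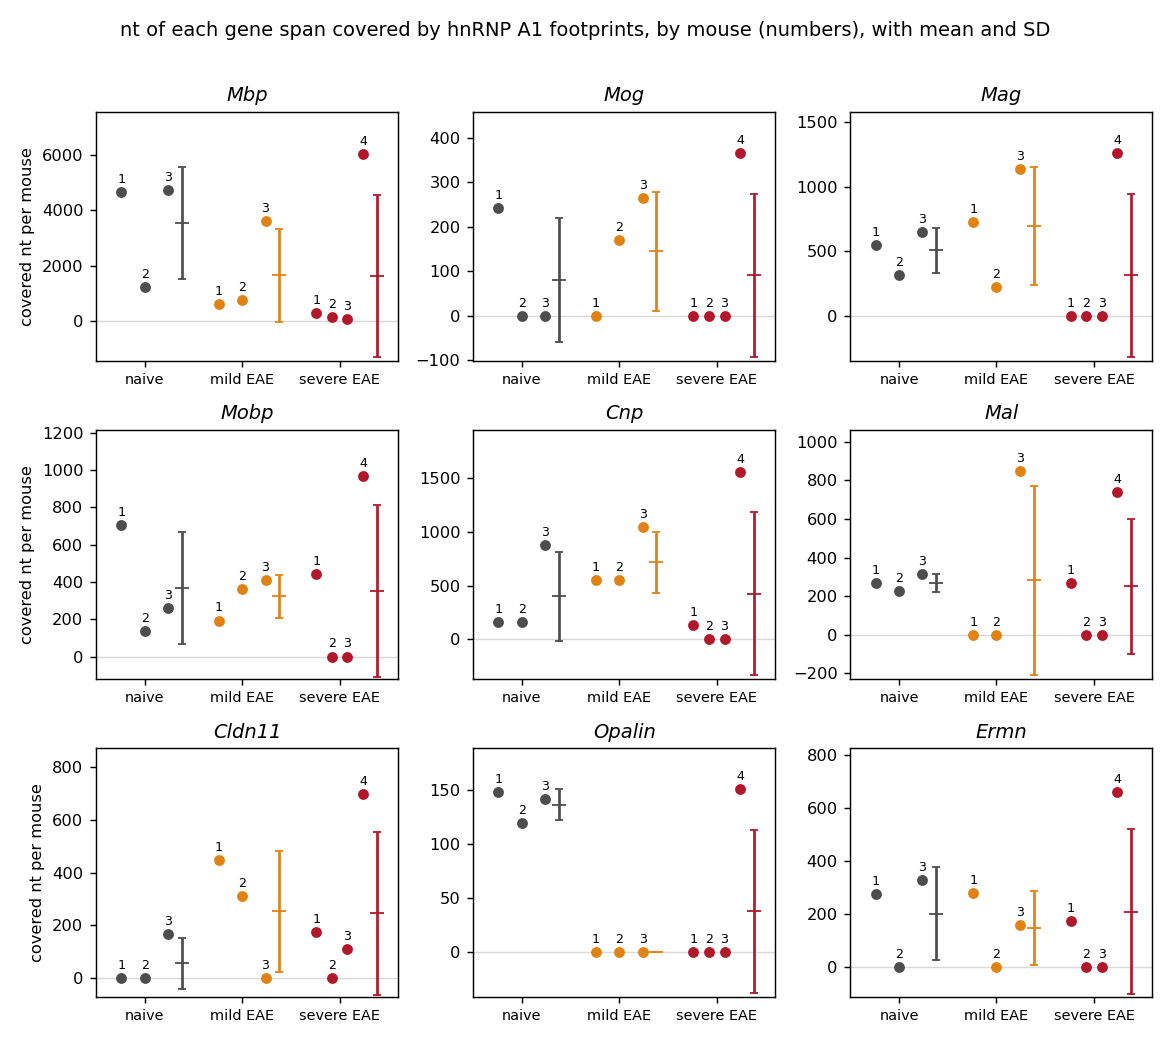
Nucleotides (nt) of each gene covered by footprints, per mouse, in naïve, mild EAE and severe EAE mice. Numbered points are mice, and the bars are the group mean and SD. Severe EAE mouse 4 had the highest value of its group in all 9 genes, and Opalin had 120 to 148 nt in the naïve mice and 0 in the mild EAE mice.

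No myelin gene passed the test in any comparison. The adjusted calls over all genes were 0% of 9195 genes for EAE against naïve, 0% of 7799 for mild EAE against naïve and 0% of 7091 for severe EAE against naïve. The smallest exact p that the mice allow is 0.00833 with 3 against 7, 0.1 with 3 against 3 and 0.02857 with 3 against 4. A call for mild EAE against naïve was therefore impossible, adjusted or not, and its 0% says nothing about the genes. In the other comparisons an adjusted call was hard to reach at any effect size. Unadjusted, 416 genes (4.52%) had an exact permutation p under 0.05 for EAE against naïve and 232 (3.27%) for severe EAE. For mild EAE the count was 0, as no p could be under 0.1. 1 of the 9 genes was among the 416 (Opalin) and 0 among the 232. Scaled to 1000000 mapped reads, the counts were 1234 (13.4%) for EAE, with Mbp and Opalin among them, and 826 (11.6%) for severe EAE, with Opalin among them, and none passed adjustment. Without severe EAE mouse 4 the unadjusted count for EAE was 762 of 8018 genes in covered nt, again with Mbp and Opalin. The mean covered nt was lower in EAE than in naïve mice for 6 of the 9 genes, against 59.7% of all genes tested. The same held for 4 of 9 with mild EAE, against 47.9%, and for 5 of 9 with severe EAE, against 73.6%.

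Opalin, a membrane glycoprotein of mature oligodendrocytes, was the only one of the 9 whose naïve and mild EAE mice did not overlap in covered nt. It was covered over 148, 120 and 142 nt in naïve mice 1 to 3, over 0 nt in each mild EAE mouse, and over 0, 0, 0 and 151 nt in severe EAE mice 1 to 4. The 3 naïve mice thus each held 1 footprint, whereas 6 of the 7 EAE mice held none, and severe EAE mouse 4 lay above the naïve mice. The mean was 137 ± 14.7 nt (SD, n = 3) in naïve and 21.6 ± 57.1 nt (n = 7) in EAE mice (exact permutation p = 0.0333, adjusted p = 0.675). For mild EAE against naïve the exact permutation p was 0.1, the smallest possible, and the adjusted p was 0.914. Groups with the naïve mice higher and no overlap were found for 4.54% of genes in mild EAE, for 1.46% in EAE as a whole and for 4.48% in severe EAE, and Opalin in mild EAE was the 1 such case among the 9 genes. In the opposite direction the shares were 4.53% in mild EAE, 0.0109% in EAE and 0.0141% in severe EAE, and none of the 9 genes was among them. Per 1000000 mapped reads Opalin was at 26.9 to 51.2 nt in naïve and 0 to 13.8 nt in EAE mice, so that all 7 EAE mice lay below the naïve mice (exact permutation p = 0.00833, adjusted p = 0.145). On that scale 6.16% of genes had the naïve mice higher without overlap in EAE and 14.7% in severe EAE. All 4 Opalin footprints lay in the last exon, 3 of them in the 3′ UTR and 1 in coding sequence by their midpoints.

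Cldn11 pointed the other way without passing the test. It was covered over 0, 0 and 165 nt in naïve mice, over 448, 312 and 0 nt in mild EAE mice, and over 174, 0, 108 and 697 nt in severe EAE mice. It was footprinted in 1 of 3 naïve and 5 of 7 EAE mice, and the groups overlapped. The mean was 55.0 ± 95.3 nt (SD, n = 3) in naïve and 248 ± 256 nt (n = 7) in EAE mice (exact permutation p = 0.275, adjusted p = 1). The position of the footprints is given as a description. The only naïve footprint lay in exon 1, which was also covered in mild EAE mouse 1. Exons 2 and 3, whose stretches are printed above, were each covered in 0 naïve, 2 mild EAE and 2 severe EAE mice.

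Mbp, the basic protein that compacts the cytoplasmic faces of myelin, held the largest number of footprints. It had 125 of the 286 footprints and was 1 of 13 genes footprinted in all 10 mice, and it ranked 46 of 13948 genes by nt summed over mice. Naïve mice had 4654, 1219 and 4744 nt covered, mild EAE mice 615, 758 and 3604 nt, and severe EAE mice 292, 154, 67 and 6034 nt. Naïve mice 1 and 3 were above every EAE mouse other than severe EAE mouse 4, but naïve mouse 2 was within the range of the mild mice, so the groups overlapped. The mean was 3539 ± 2010 nt (SD, n = 3) in naïve and 1646 ± 2291 nt (n = 7) in EAE mice, a difference smaller than the spread (exact permutation p = 0.317, adjusted p = 1). This depended on the scaling. Per 1000000 mapped reads the naïve mice had 520 to 898 nt and the mild EAE mice 108.9 to 437 nt, without overlap, as for 10% of genes tested. On that scale the difference of EAE minus naïve was -566 nt (exact permutation p = 0.0167, adjusted p = 0.189). Per 10000 covered nt it turned to 0.668 nt (exact permutation p = 0.992, adjusted p = 1). Without severe EAE mouse 4 the difference of severe EAE minus naïve was -3368 nt, against -1902 nt with it, and that of EAE minus naïve was -2624 nt (exact permutation p = 0.0238, adjusted p = 0.373).

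Where the footprints of Mbp lay was shared by the groups. The locus spans chr18:82475146-82585637 on the plus strand and has an upstream part used by the Golli transcripts, which arise from an earlier promoter and are expressed outside myelin as well. The 79174 nt of this upstream part held 0 footprints in any mouse, and all 125 lay in the 31318 nt from the first exon of the classic transcripts onward, the transcripts that give the myelin protein. Within that stretch, 124 of 125 footprints (99.2%) had their midpoint between the 7 classic exons. The terminal exon, 1526 nt with the 3′ UTR, held 0 footprints. Sites also held by input or IgG libraries had been removed, so an exon without a footprint is not shown to be unbound. The part of this removal in the layout of Mbp was not tested. Only 2 footprints touched a classic exon, both the alternatively spliced exon 2 of 78 nt, in mild EAE mouse 1 and severe EAE mouse 3.

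**Figure D2:**
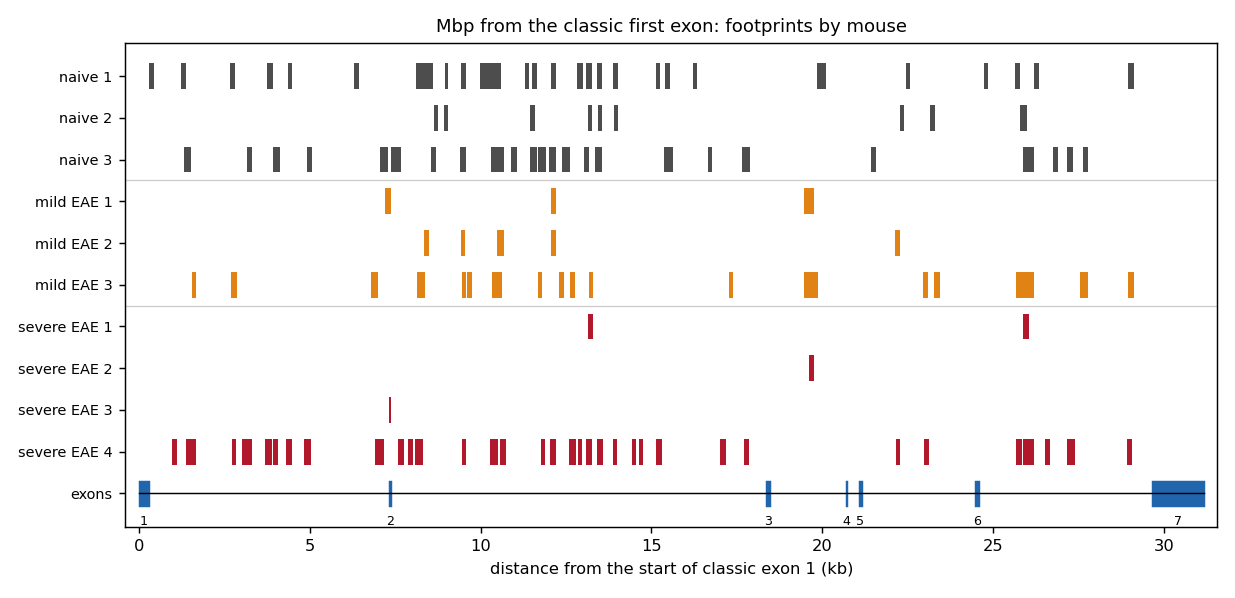
Footprints along the Mbp gene by mouse, plotted as distance from the start of the classic part in kb, with the 7 classic exons drawn in the lowest row. The other rows are mice and the bars are footprints. Of the 125 footprints, 124 have their midpoint between the exons and none lies in the terminal exon. Sites also held by input or IgG libraries had been removed before.

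Intron 2 of classic Mbp, which follows the alternative exon, was the densest. It held 67 footprints in 8 of the 10 mice, or 6.11 per 1000 nt over its 10969 nt, and 55.7% of its length was covered in at least 1 mouse. Intron 1 held 25 footprints (3.56 per 1000 nt over 7027 nt), intron 6 held 19 (3.76 per 1000 nt), intron 5 held 9, intron 3 held 4 and the 327 nt of intron 4 held none. Counted over every annotated transcript, 106 of 125 Mbp footprints (84.8%) were intronic, with 52 of 60 in naïve mice, 24 of 26 in the mild and 30 of 39 in the severe EAE mice. The remainder were mainly 16 footprints in the 3′ UTR of a Golli transcript, which is intron 1 of the classic ones. Among 997 protein-coding genes with at least 30 footprints the median intronic share was 6.84%, and 13.9% of them had a share as high as that of Mbp. Of the 31318 nt, 24624 are intronic in all annotated transcripts, so the introns are also most of the length. The split between unspliced RNA and transcripts that keep an intron was not tested.

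Positions in Mbp recurred between mice. Merged over mice, its footprints made 51 regions, of which 32 were covered in 2 or more mice and 27 in both naïve and EAE mice. The regions found in most mice, 6 of 10, lay at chr18:82562562-82563218 and chr18:82567504-82567757 in intron 2 and at chr18:82580114-82580664 in intron 6. 3 stretches of intron 2 were covered in all 3 naïve mice, of 97 nt at chr18:82565968-82566064, 22 nt at chr18:82567618-82567639 and 122 nt at chr18:82567902-82568023. A stretch of 287 nt in intron 3, shared by mild EAE mice 1 and 3 at chr18:82573938-82574224, held 48 UAG and lay wholly in sequence that the assembly marks as repeats. The only footprint of severe EAE mouse 2 in the 9 genes lay inside it. Of 15482 stretches shared within a group and lying in 1 gene, 9 held as many UAG, this one among them. Over all its footprints Mbp was not rich in repeats, since 12.5% of their nt were marked, against 12.6% of its classic introns and 20.4% of all footprints in genes.

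The other 8 genes had the opposite layout. By midpoint, 23 of their 161 footprints (14.3%) were intronic, against 25.2% of all footprints in genes, and 12 of those 23 lay in Cnp within exons of the neighbouring gene Dnajc7, whose span overlaps it. In all, 62 of the 161 footprints had an end exactly at an exon border, against 1 of the 125 in Mbp and 52.6% of all footprints in genes. The 8 genes together were thus not above the share over all genes, and 30 of the 62 were in Mag. An end at a border is what a read through spliced RNA leaves when it is split at a junction.

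**Figure D3:**
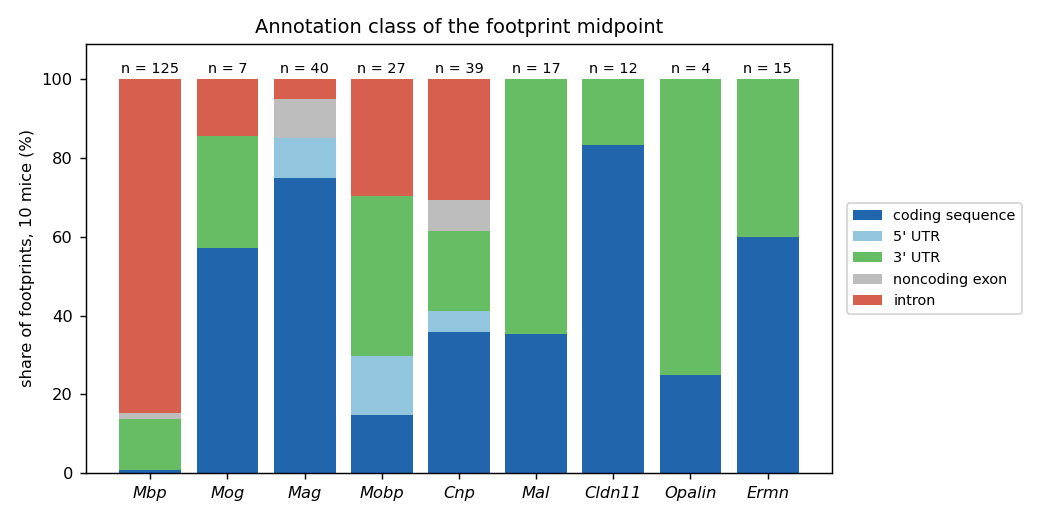
Percent of the footprints of each gene in coding sequence, 5′ UTR, 3′ UTR, noncoding exon and intron, by the class of the midpoint, over the 10 mice together, with the number of footprints above each bar. Mbp is mainly intronic (106 of 125), Mag mainly coding (30 of 40) and Mal mainly 3′ UTR (11 of 17).

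Mag, the adhesion protein of the myelin layer next to the axon, was the gene with the clearest spliced pattern. Its covered length was 553, 317 and 651 nt in naïve mice, 731, 223 and 1140 nt in mild EAE mice, and 0, 0, 0 and 1263 nt in severe EAE mice. It was thus covered in every naïve and mild mouse but in 1 of the 4 severe mice, and the naïve and mild values overlapped. The mean was 507 ± 172 nt (SD, n = 3) in naïve, 698 ± 459 nt (n = 3) in mild EAE and 316 ± 632 nt (n = 4) in severe EAE mice (exact permutation p = 0.6 for mild and 0.657 for severe against naïve, adjusted p = 1 in both). Without severe EAE mouse 4 the severe mice were all at 0, and the difference of severe EAE minus naïve went from -191 to -507 nt.

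Of 40 Mag footprints, 30 had an end at an exon border. By midpoint, 2 were intronic and 4 lay in a noncoding exon beside exon 6, which is intron in the reference transcript. At the junction of exons 10 and 11, where exon 10 encodes the transmembrane segment, the same 5 mice (naïve 1 and 2, mild EAE 1 and 3, severe EAE 4) had an edge at both sides. Exon 8 was covered in 5 mice, all 3 mild EAE mice among them, and the 63 nt printed above were common to those 3. Exon 12 of 45 nt, whose inclusion gives the short form of the protein, was covered in mild EAE mouse 3 only. Across the 9 genes, 15 of 43 reference junctions had both edges in at least 1 mouse, of which 7 of 12 were in Mag, 2 of 3 in Cnp, 2 of 3 in Mal, 2 of 2 in Cldn11 and 2 of 2 in Ermn. Mbp, Mog, Mobp and Opalin had 0.

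Cnp was covered over 162, 160 and 880 nt in naïve mice, 552, 553 and 1045 nt in mild EAE mice, and 135, 0, 0 and 1558 nt in severe EAE mice. The 3 mild mice lay above naïve mice 1 and 2 and on both sides of naïve mouse 3, so the groups overlapped. The mean was 401 ± 415 nt (SD, n = 3) in naïve and 717 ± 284 nt (n = 3) in mild EAE mice (exact permutation p = 0.3, adjusted p = 0.914). The files carry no strand, so reads of Cnp and of Dnajc7 cannot be separated where they overlap. Without nt in Dnajc7 exons, the values were 162, 160 and 748 nt in naïve, 342, 284 and 881 nt in mild EAE and 135, 0, 0 and 1253 nt in severe EAE mice. The last exon of Cnp was covered in 8 of 10 mice, the highest number for an exon of these genes.

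**Figure D4:**
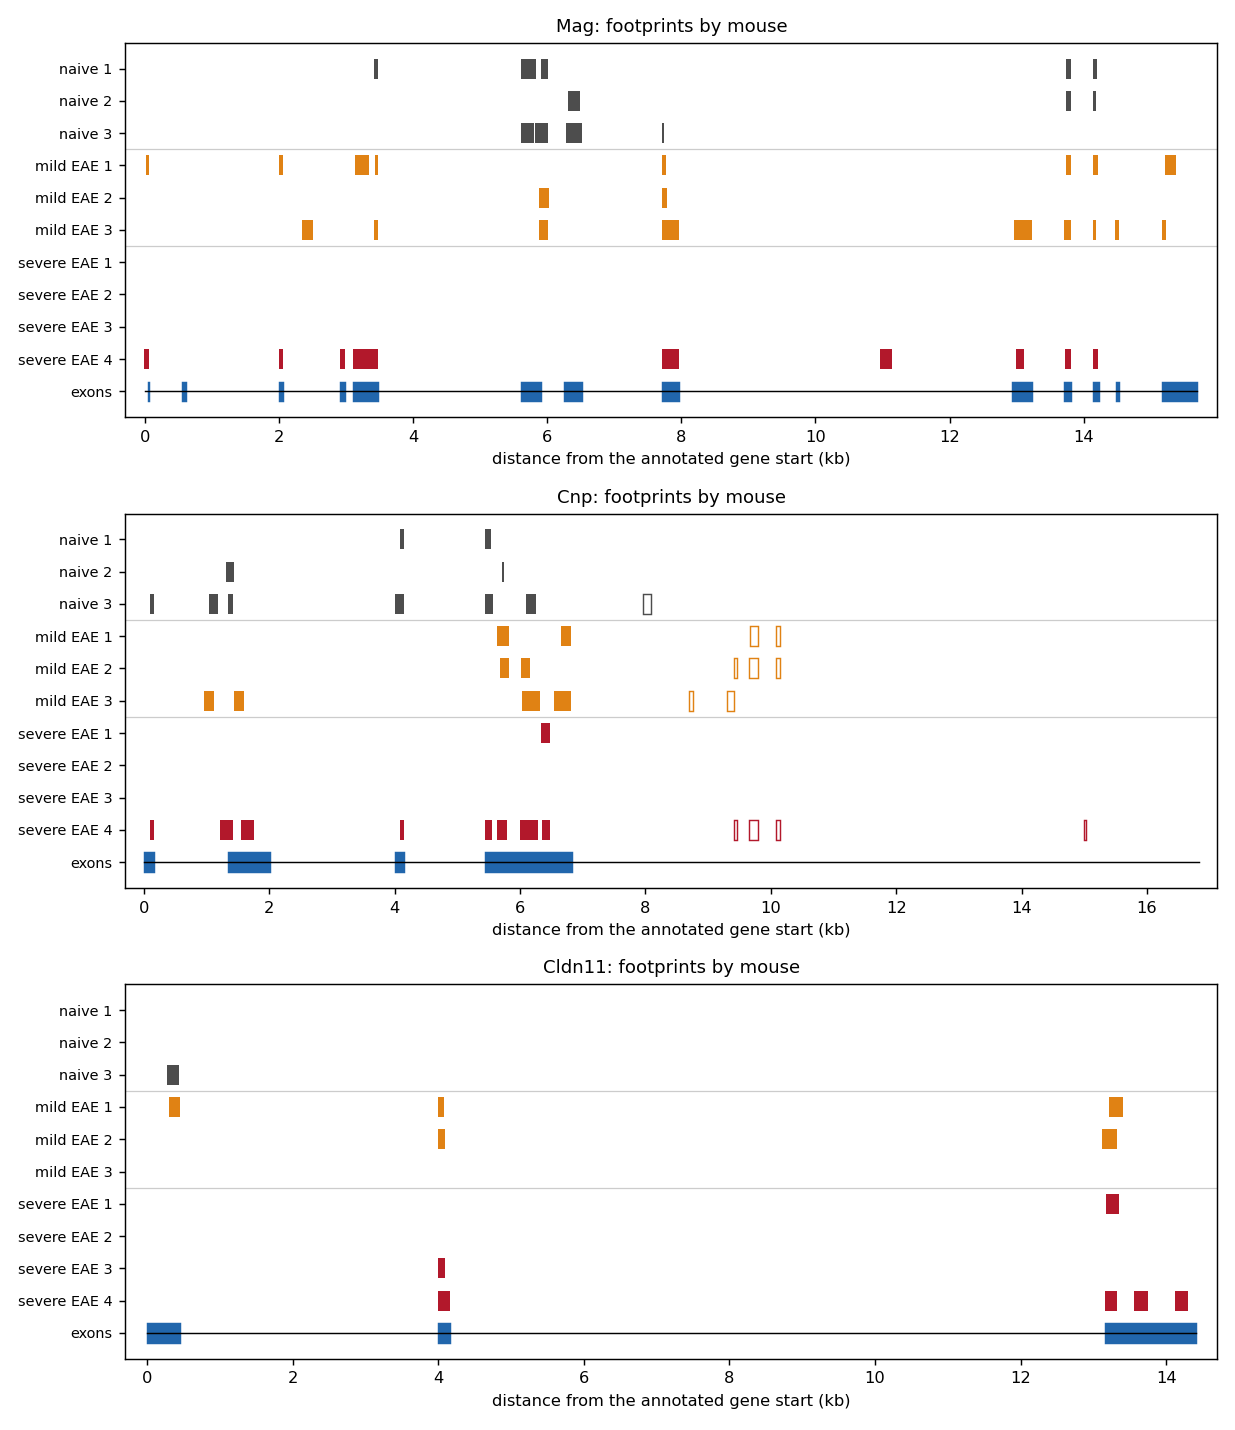
Footprints along Mag, Cnp and Cldn11 by mouse, as distance from the start of each gene in kb, with the exons of the reference transcript in the lowest row of each panel. The other rows are mice, filled boxes are footprints and open boxes are footprints in exons of Dnajc7. Footprints of Mag sit mainly on exons. By midpoint, 2 of 40 lie in introns of every annotated transcript. A further 4 lie in a noncoding exon that is an intron of the reference transcript. Exons 2 and 3 of Cldn11 are empty in the 3 naïve mice.

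Mobp, the second basic protein of compact myelin, was covered over 707, 138 and 258 nt in naïve, 193, 361 and 412 nt in mild EAE and 441, 0, 0 and 970 nt in severe EAE mice. The mild values lay inside the naïve range (exact permutation p = 0.9, adjusted p = 1, n = 3 per group). Its first exon, in the 5′ UTR, was covered in naïve mouse 1 and all 3 mild EAE mice, and in 0 severe mice. Mobp had 8 intronic footprints of 27, the next highest number after Mbp and Cnp.

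Mal was covered over 266, 225 and 317 nt in naïve, 0, 0 and 847 nt in mild EAE and 268, 0, 0 and 741 nt in severe EAE mice. The naïve mice were close together, at 269 ± 46.1 nt (SD, n = 3), whereas 4 of the 7 EAE mice were at 0 and 2 were above every naïve mouse (exact permutation p = 1, adjusted p = 1). Of its 17 footprints, 11 were in the 3′ UTR and 0 in introns.

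Ermn, which encodes a cytoskeletal protein, was covered over 273, 0 and 328 nt in naïve, 279, 0 and 158 nt in mild EAE and 172, 0, 0 and 660 nt in severe EAE mice. Each group held a mouse at 0, and the groups overlapped (exact permutation p = 0.967, adjusted p = 1, n = 3 against 7). All 15 Ermn footprints were exonic, 9 in coding sequence and 6 in the 3′ UTR.

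Mog, whose peptide was the immunogen, had the fewest footprints after Opalin, with 7 in 4 mice. It was covered over 242, 0 and 0 nt in naïve, 0, 170 and 265 nt in mild EAE and 0, 0, 0 and 366 nt in severe EAE mice. The groups overlapped (exact permutation p = 0.75, adjusted p = 1, n = 3 against 7). Exon 2 of 348 nt, which encodes the extracellular immunoglobulin-like domain, was covered in 1 mouse of each group.

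Stretches covered in at least 2 mice of the same group numbered 26 in naïve, 21 in mild EAE and 6 in severe EAE mice. Mbp held 13, 5 and 2 of them, Mag 6, 6 and 0, Cnp 3, 5 and 1, and Cldn11 0, 2 and 2. Of the 5 Cnp stretches in mild EAE mice, 2 lay in exons of Dnajc7. A shared stretch was held by 6 of the 9 genes in naïve mice, against 20.2% of all genes with a footprint. The mild EAE mice had one in 6 of 9, against 24.2%, and the severe EAE mice in 4 of 9, against 6.44%. All 9 genes were footprinted in at least 4 mice, as were 36.0% of the 13948 genes. A gene footprinted in only 1 mouse can hold no shared stretch, so these shares do not compare like genes, and enrichment was not tested. The severe count depends on 2 mice, since mouse 4 takes part in 6 of the 6 stretches and mouse 1 in 5. Without severe EAE mouse 4 it is 0 and without mouse 1 it is 1. In naïve mice it is 8 without mouse 1 or mouse 3 and 16 without mouse 2, and in mild EAE mice it is 8 without mouse 1 or 3 and 9 without mouse 2.

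UAG was present in 25 of the 53 stretches (47.2%), against 46.8% of shared stretches of all genes within 10 nt of the same lengths, and AGGU in 19 (35.8% against 30.1%). Both were searched on the strand of the gene. By group, AGGU was present in 10 of 26 naïve, 8 of 21 mild EAE and 1 of 6 severe EAE stretches. UAG was present in 13, 8 and 4 of them. By gene, 14 of the 20 stretches of Mbp held UAG (70% against 54.7%), and 11 of the 33 in the other genes did (33.3% against 42.0%). Among those 11 were the 2 Cnp stretches in exons of Dnajc7, searched on the strand of Cnp. These shares are descriptions, and a match of 3 or 4 letters is not a binding site.

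The share of each library in the 9 genes shows the same data against the size of the library. Naïve mice had 31.6, 10.6 and 34.2 of every 10000 covered nt in these genes, mild EAE mice 18.2, 20.6 and 25.0, and severe EAE mice 44.9, 63.2, 23.0 and 30.04. The groups overlapped, with means of 25.5 ± 12.9 (SD, n = 3), 21.3 ± 3.46 (n = 3) and 40.3 ± 17.8 (n = 4) nt per 10000. The highest share, in severe EAE mouse 2, was the 154 nt of 1 footprint among 209. Without Mbp the shares were 10.6, 4.67 and 12.5 in naïve, 14.2, 14.0 and 12.9 in mild EAE, and 36.0, 0, 14.2 and 15.5 in severe EAE mice. The 3 mild mice thus lay above the 3 naïve mice once Mbp was set aside, as noticed after the values were seen. That order rests on nt of Cnp in Dnajc7 exons. Leaving those nt out takes Cnp from 553 to 284 nt in mild EAE mouse 2 and from 880 to 748 nt in naïve mouse 3. Mild EAE mouse 2 then lies below naïve mouse 3, so the groups overlap.

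**Figure D5:**
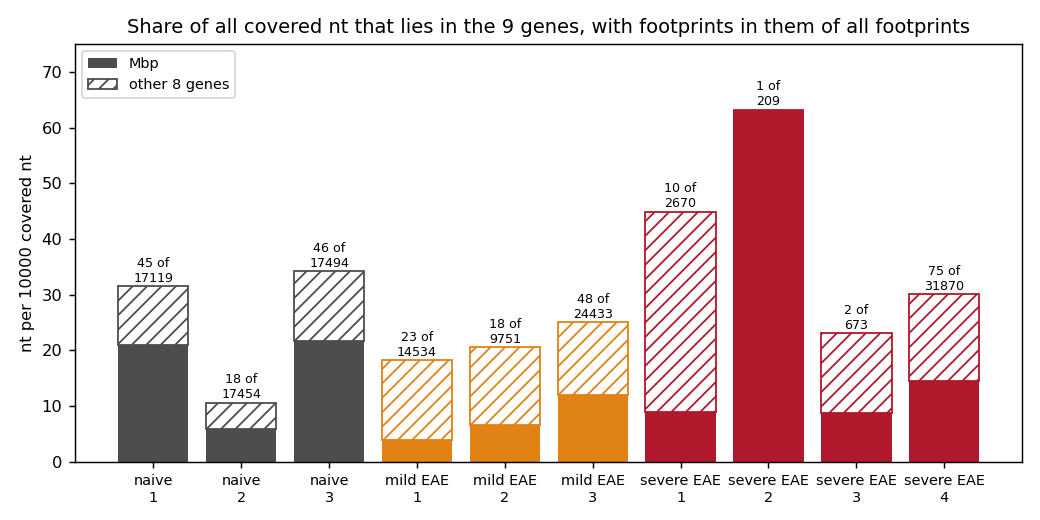
Covered nt in the 9 genes per 10000 covered nt of each library, per mouse, by group. The solid part of each bar is Mbp and the hatched part the other 8 genes. Above each bar stand the footprints in the 9 genes of all footprints of the mouse. The solid part is the larger in the 3 naïve mice and the smaller in the 3 mild EAE mice.

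Other genes of oligodendrocytes gave 36 names, of which 33 had a footprint in any mouse, and none passed the test in any comparison. Their summed share was 47.0 ± 10.8 nt per 10000 (SD, n = 3) in naïve, 69.9 ± 12.1 (n = 3) in mild EAE and 49.0 ± 36.8 (n = 4) in severe EAE mice. The naïve mice, at 35.2 to 56.4, and the mild EAE mice, at 62.1 to 83.9, did not overlap. The severe EAE mice ran from 0 to 83.4, and this summed share carries no test. Nfasc, which encodes the neurofascins of paranodes and nodes, had the longest cover of the list at 23486 nt over 9 mice. The next were Qk, an RNA-binding protein that regulates myelin transcripts (8072 nt, 8 mice), Bin1 (6200 nt, 7 mice), Bcas1 (5961 nt, 7 mice) and Trf, transferrin (5295 nt, 9 mice), with an adjusted p of 1 in every comparison.

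Markers of other cells were summed per mouse, as a description with no test. The naïve and mild EAE mice overlapped for neurons and oligodendrocyte precursors but not for microglia and leukocytes or astrocytes, and in each of these lists the severe EAE mice began at 0 and overlapped with the naïve mice. The 16 markers of microglia and leukocytes summed to 1.46 to 2.89 nt per 10000 in naïve, 10.4 to 16.6 in mild EAE and 0 to 34.3 in severe EAE mice. Of the 16, 4 were footprinted in naïve, 9 in mild EAE and 9 in severe EAE mice, and the defining T cell markers Cd3e, Cd4 and Cd8a and the microglial Aif1 were at 0 in all mice. The 14 neuron markers summed to 30.4 ± 6.70 nt per 10000 in naïve (n = 3), 23.4 ± 4.61 in mild EAE (n = 3) and 10.4 ± 14.5 in severe EAE mice (n = 4). In the same order and unit, the 10 astrocyte markers summed to 14.6 ± 6.56, 27.4 ± 5.70 and 25.5 ± 20.9, and the 10 markers of oligodendrocyte precursors to 14.4 ± 3.77, 9.66 ± 4.14 and 6.68 ± 8.75. No gene of these lists passed the test, and the part of cell composition in the values of the myelin genes was not tested.

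The genes whose covered nt per 10000 followed the sum of the 9 most closely over the 10 mice, among 582 genes footprinted in at least 8 mice, were Clu (Spearman's rho 0.71), Ndrg2 (0.68), Timp2 (0.67), Gm21984 (0.66) and Gnao1 (0.66). These values describe 10 libraries of very different size and carry no test.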

How the data were processed

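Per the labels and the study's methods, the authors sequenced the immunoprecipitated RNA of each mouse, demultiplexed and trimmed the reads (bcl2fastq 2.19.0.316, fastp), built contigs from them (rnaSPAdes) and placed these on GRCm38 with the spliced mode of minimap2 2.17. They then subtracted, with bedtools, sites that the mouse's own input or the combined IgG controls also held, and merged overlapping sites without strand. The deposited files are lists of chromosome, start and end for each mouse, with no count, score or strand. Assembly drops RNA of low depth and turns depth into presence or absence, spliced contigs are cut at introns, and merging joins neighbouring genes. Input and IgG libraries were not analysed here.

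From these files, the nt of each GENCODE M21 gene span covered per mouse were computed with Python 3.11.15, numpy 2.4.6 and scipy 1.17.1, and sequences were read with pysam 0.24.0. Figures were drawn with matplotlib 3.10.9. Groups came from the clinical scores in the labels. Group means were tested with a two-sided exact permutation test over mice, for genes footprinted in at least 2 of the mice compared. A shared stretch is more than 1 nt covered in at least 2 mice of 1 group. Footprints were classed by their midpoint on the gene's transcripts. The self-test recovered what the simulated intervals were made with. Alternatives were the number of footprints, scaling to 10000 covered nt or to 1000000 mapped reads (totals from the study's sequencing table), log2(nt + 1), footprints of at least 30 nt, shared stretches of at least 20 nt, a replicate block and leaving out each mouse. Leaving out nt in exons of other genes, and leaving out severe EAE mice 2 and 3 together, were added after seeing the data. All 9 genes are named, together with the 5 longest covered of the other oligodendrocyte genes and the 5 genes of most similar pattern, and 5 further marker lists were counted. The genes and lists were chosen with earlier results of these data known. The age of the mice is given as 8 and as 12 weeks, and the antibody clone also differs between descriptions.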

Additional observations from a re-analysis of the deposited data

Results flagged for a closer look

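In the group of 4 severe EAE mice, mouse 4 stood far above the other 3 in 5 of the 10 sets of values examined, each time as the highest mouse. It had 6034 nt covered in Mbp, where the others had 67 to 292 nt, 366 nt in Mog, 1263 nt in Mag and 151 nt in Opalin, where the others had 0, and 1558 nt in Cnp, where the others had 0 to 135 nt. Among groups of 4 untied, normally distributed values, chance sets about 1 in 20 apart in this way. Whether covered nt are so distributed was not tested. The rate does not hold for Mog, Mag and Opalin, where the other 3 mice are tied at 0. The 5 sets share the same mouse and so are not independent. The library of this mouse held 31870 footprints, against 209 to 2670 in the other 3. The part of library size in these values was not tested.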

How the results depend on the processing

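No gene was called in any comparison under any alternative, and the 9 genes' adjusted p-values ranged from 0.145 to 1 over 420 values. For mild EAE no call was possible, since the smallest exact permutation p there is 0.1. The direction of a gene's difference, however, often turned (81 of 420), and the cause was not tested. Opalin kept its lower mean in EAE, mild EAE and severe EAE mice under all alternatives and Cldn11 its higher one, though without severe EAE mouse 4 the Cldn11 difference in severe EAE went from 190 to 39.0 nt, and over the mice left out in turn it ran from 119 to 248 nt in EAE and from 101.0 to 325 nt in mild EAE. The differences of EAE minus naïve that turned are given in nt unless another unit is named. Counted as footprints, they were 0.0476 for Mobp in EAE, 0.333 for Mobp and -0.333 for Mal in mild EAE, and -0.417 for Mog, Cnp and Ermn in severe EAE. Per 1000000 mapped reads, they were -1.03 for Mog and -18.2 for Cnp in EAE, -17.4 for Mag and -33.9 for Mal in mild EAE, and -6.29 for Mog, -46.1 for Cnp and -14.1 for Ermn in severe EAE. Per 10000 covered nt, they were 0.668 for Mbp, 1.39 for Mobp, 0.573 for Mal and 0.395 for Ermn in EAE, 0.237 for Mobp and -0.302 for Mal in mild EAE, and 7.67 for Mbp, -0.142 for Mog, 2.25 for Mobp and 1.23 for Mal in severe EAE. On the log2(nt + 1) scale, they were -1.59 for Cnp in EAE, 0.0621 for Mobp and -4.82 for Mal in mild EAE, and -0.51 for Mog, -3.73 for Cnp and -1.29 for Ermn in severe EAE. With footprints of at least 30 nt, Mal was at 4.48 in EAE. Without nt in exons of other genes, Cnp was at -9.67 in severe EAE. Without severe EAE mice 2 and 3, the differences were 164 for Mag, 108 for Mobp, 101.9 for Mal and 53.5 for Ermn in EAE, and 124.5 for Mag, 338 for Mobp and 235 for Mal in severe EAE.

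Leaving out 1 mouse at a time gave ranges, in EAE, of -8.17 to 114 for Mog, -158 to 52.5 for Mag, -143 to 142 for Mobp, -19.8 to 388 for Cnp, -101 to 40.0 for Mal and -119 to 44.8 for Ermn. In mild EAE they were -30.0 to 428.5 for Mag, -160.5 to 124 for Mobp, -269 to 154 for Mal and -155 to 18.2 for Ermn. In severe EAE they were -29.5 to 41.3 for Mog, -221 to 155 for Mobp, -356 to 262 for Cnp, -180.0 to 67.0 for Mal and -143 to 77.0 for Ermn. The shared stretches then numbered 8 to 16 in naïve, 8 to 9 in mild EAE and 0 to 6 in severe EAE mice.

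The replicate block, which pairs mice of the same label number, gave 0 calls, with a smallest possible p of 0.25, and turned Cnp to -172 nt in EAE. The block paired naïve mice 1, 2 and 3 with severe EAE mouse 1, severe EAE mouse 2 and mild EAE mouse 1, and left out the other EAE mice. Deviations of same-numbered mice correlated at 0.00153, 0.0754 and -0.00799, and 1 of the 3 naïve mice correlated best with its own number. With 3 pairs, and 209 footprints in severe EAE mouse 2, these values cannot decide whether the number marks a batch. The files give no read depth per footprint, so the limit of detection per mouse is unknown.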

Other observations

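Among the other oligodendrocyte genes, Olig2 and Sox10 had an unadjusted exact permutation p under 0.05 in a comparison, as noticed after their values were seen. Olig2 was 1 of 33 tested for EAE, against 4.52% of all genes, and Sox10 was 1 of 29 for severe EAE, against 3.27%. The list thus held about as many as all genes did. Olig2, which specifies the lineage, was covered over 140, 125 and 139 nt in naïve mice, 0 nt in each mild EAE mouse and 166, 0, 0 and 0 nt in severe EAE mice. Its exact permutation p was 0.0333 for EAE against naïve and it did not pass adjustment (adjusted p = 0.675). Sox10, which maintains the lineage, was covered over 479, 364 and 164 nt in naïve, 528, 98 and 164 nt in mild EAE and 0, 0, 0 and 113 nt in severe EAE mice. The naïve and severe mice of Sox10 did not overlap (exact permutation p = 0.02857, the smallest possible, adjusted p = 0.681). Over all genes tested in that comparison, 4.48% had the naïve mice higher without overlap. The mild mice of Sox10 overlapped with its naïve mice.

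Olig1, the neighbour of Olig2 in the same family, was covered over 564, 137 and 148 nt in naïve, 0, 127 and 298 nt in mild EAE and 177, 0, 0 and 852 nt in severe EAE mice, so that its groups overlapped. Myrf, a transcription factor of myelination, was covered over 597, 263 and 257 nt in naïve and 1172, 0 and 499 nt in mild EAE mice, also with overlap. Nkx6-2, another factor of the lineage, was at 0 in the 3 naïve mice and covered over 145, 0 and 297 nt in mild EAE and 0, 0, 0 and 159 nt in severe EAE mice. Cd9, a tetraspanin of oligodendrocytes and other cells, was at 0 in the 3 naïve mice and covered over 354, 0 and 143 nt in mild EAE and 141, 0, 0 and 445 nt in severe EAE mice, again with a mouse at 0 in each EAE group.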
